A study of Mus musculus with 58 samples.

Results

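The 10 genes described here encode the core of the microRNA pathway in mouse: Drosha and Dgcr8, Xpo5, Dicer1, the Argonautes Ago1, Ago2, Ago3 and Ago4, and the GW182 proteins Tnrc6a and Tnrc6b. They were chosen by name, with earlier results of these data known, and are 10 of the 24028 genes in the deposited count tables. All 10 were found by symbol, and all 10 passed the filter on low counts in every comparison.

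Most microRNAs are cut out of a primary transcript in the nucleus by the Microprocessor, a complex of the nuclease Drosha and the RNA-binding protein Dgcr8. The precursor hairpin is carried to the cytoplasm by the export receptor Xpo5 and diced by Dicer1, and one strand is loaded into an Argonaute protein, which uses it to find target messages. GW182 proteins such as Tnrc6a and Tnrc6b join the Argonaute to the deadenylation and decapping machinery. Activation of CD4+ T cells is known to be followed by a loss of Argonaute protein and of many mature microRNAs. RNA levels say nothing about protein, and mature microRNAs were not measured in these libraries.

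The series compared naive and stimulated CD4+ T cells of 3 genotypes that differ in the miR-17∼92 cluster. TG cells (T1792 tg/tg) carried CD4cre and a transgene in Rosa26 in which a CAG promoter drives miR-17∼92 once a loxSTOPlox block is removed. KO cells (T1792 delta/delta) carried CD4cre and floxed copies of the cluster. WT cells were wild type, and since no Cre is listed for them, the effect of the cluster and that of CD4cre cannot be told apart in a comparison with WT. The starting cells were naive CD4+ T cells, purified by kit from lymph nodes and spleens pooled over 10 mice of both sexes. They were profiled directly (naive) or after 24 or 48 h on plates coated with 0.2 µg/ml anti-CD28 and either 0.25 µg/ml (very weak) or 0.5 µg/ml (weak) anti-CD3, with 50 U/ml IL-2. Each of the 15 groups had 4 libraries, except that KO naive and WT naive had 3. The labels number the replicates but do not say that they came from separate mice, so p-values measure the spread between these libraries, which may be technical. In bulk RNA, fewer cells of a type and less RNA per cell cannot be told apart.

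The 58 poly(A) libraries held between 19.2 M and 20.8 M exonic counts each (in units of 1e6 counts). Intronic counts made up 22.6% to 30.7% of the reads in the 10 naive libraries and 12.4% to 18.4% in the 48 stimulated ones. Counts at the Mir17 hairpin totalled 140 in stimulated TG, 2 in stimulated KO and 57 in stimulated WT libraries, and single libraries ranged from 0.102 to 0.942 CPM in TG, 0 to 0.0999 CPM in KO and 0 to 0.476 CPM in WT. In naive libraries the totals were 542 in TG, 3 in KO and 10 in WT. Stimulated totals at the Mir19a hairpin barely separated TG from WT, at 79 in TG, 0 in KO and 72 in WT. The Mir17 totals follow the order of the labels, though poly(A) libraries hold few hairpin reads. Exonic counts of the host gene Mir17hg did not follow it: they totalled 13819 in stimulated TG, 37651 in stimulated KO and 12340 in stimulated WT libraries (16 each), and 6781 in naive TG (4 libraries), 2820 in naive KO and 1838 in naive WT (3 each). Why the host gene and the hairpin differ was not tested. The replicate 3 library of KO cells after 48 h of very weak stimulation stood apart within its group. Its intronic share was 12.4%, against 15.7% to 15.9% in the other 3. TG replicates 2 and 3 after 48 h of weak stimulation had similar shares, at 12.9% and 12.8%. Cd3e (149 to 540 CPM) and Cd4 (415 to 1650 CPM) were present in every library. Levels are given as CPM, counts per 1e6 counts of the library after TMM scaling. A gene is called changed when its Benjamini-Hochberg adjusted p from edgeR's quasi-likelihood test, over all genes tested, is under 0.05.

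The mature microRNAs of the cluster are shown because the genotypes were made to differ in them. They fall into 4 seed families, and capitals mark the seed, bases 2 to 8. All 6 sequences are from RefSeq and lie on the plus strand of chromosome 14 in GRCm38.p6 (mm10). The set runs from chr14:115043684-115043706 (miR-17-5p) to chr14:115044476-115044496 (miR-92a-3p).
mmu-miR-17-5p: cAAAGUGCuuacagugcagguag
mmu-miR-20a-5p: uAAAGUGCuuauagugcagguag
mmu-miR-18a-5p: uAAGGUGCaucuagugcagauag
mmu-miR-19a-3p: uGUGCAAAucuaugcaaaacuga
mmu-miR-19b-3p: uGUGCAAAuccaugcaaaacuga
mmu-miR-92a-3p: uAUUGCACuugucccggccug

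The 3′ UTRs of the 10 genes were searched on the transcript strand for the 7-base complements of these seeds: GCACTTT (miR-17-5p and miR-20a-5p), GCACCTT (miR-18a-5p), TTTGCAC (miR-19a-3p and miR-19b-3p) and GTGCAAT (miR-92a-3p). One GENCODE transcript per gene was used. Ago1 held 3 matches in 4491 bases, Ago2 held 3 in 11064, Ago3 held 8 in 12742, and Tnrc6b held 6 in 11609. Dicer1 and Tnrc6a held 2 each, Dgcr8 held 1, and Ago4, Drosha and Xpo5 held none in these windows. Of 20944 genes with an annotated 3′ UTR, 27.2% held at least 1 of the 4 motifs, and their median 3′ UTR was 853 bases. Singly, 11.1% held GCACTTT, 7.3% GCACCTT, 10.6% TTTGCAC and 6.17% GTGCAAT. At least as many matches as the 3 of Ago1 stood in 2.77% of these genes, whatever the length of their 3′ UTR. Only 1 of the 3 Ago2 matches lies inside the RefSeq gene, since the GENCODE 3′ UTR runs beyond it. In Ago1 the miR-17 and miR-19 motifs share the letters GCAC in the run TTTGCACTTT, found in 0.649% of these genes, and Ago3 holds that run at 2 places. The 3 places are shown with this run in capitals. All are on the minus strand in mm10, at chr4:126438525-126438549 for Ago1 and at chr4:126343695-126343719 and chr4:126338994-126339018 for Ago3.
Ago1: tccattgacaTTTGCACTTTcagac
Ago3, nearer the stop codon: ttcagggaacTTTGCACTTTgtaag
Ago3, farther from the stop codon: gtgtgcaactTTTGCACTTTgccca
The third motif of Ago1 is the miR-18a match, at chr4:126438868-126438889 on the minus strand, shown with the 7 matching bases in capitals.
Ago1, miR-18a match: attctctaccccatGCACCTTt
These are matches of letters, not tested sites. Matches stand in Ago1, which differed between each pair of genotypes in stimulated cells. They also stand in Ago2, Ago3, Dgcr8, Dicer1, Tnrc6a and Tnrc6b, which were not called in KO or TG against WT pools. Ago4, Drosha and Xpo5, without matches, were not called there either. A fit with the replicate number as a block, given below, called Dgcr8, Drosha and Xpo5 in TG against WT and Drosha in KO against WT. The part of the matches in these levels was not tested.

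Ago1, Ago3 and Ago4 lie side by side on chromosome 4 (mm10), at chr4:126435012-126468707, chr4:126326994-126431670 and chr4:126489487-126533586, while Ago2 lies alone at chr15:73101625-73184947. Drosha (chr15:12824804-12935291) and Tnrc6b (chr15:80711313-80941086) share chromosome 15 with Ago2. Dgcr8 (chr16:18253948-18289251), Xpo5 (chr17:46202811-46243598), Dicer1 (chr12:104687740-104751968) and Tnrc6a (chr7:123031101-123195296) are each on a chromosome of their own. Dgcr8 shares 10.7% of its exonic bases with Trmt2a on the opposite strand and 4.25% with the gene model Gm49776 on its own strand, and since no source used here says whether the counting used strand, its counts may hold reads of these neighbours.

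In naive WT cells, levels of the 10 messages per kilobase of exon spanned a wide range. Tnrc6a had 41.0 ± 1.78 CPM per kb (SD, n = 3) and Ago2 had 29.8 ± 1.20 CPM per kb. Ago1 had 19.2 ± 1.11 CPM per kb and Tnrc6b 18.8 ± 1.99 CPM per kb, which do not differ beyond their spread. Xpo5, Dicer1, Drosha and Dgcr8 followed at 15.3, 14.1, 11.5 and 11.5 CPM per kb, with Xpo5 and Dicer1 close together and Drosha and Dgcr8 not differing beyond their spread. Ago3 had 5.11 CPM per kb, and Ago4 was barely detected at 0.151 CPM per kb. The order between these ends depends on the length used. With the longest transcript of each gene, Tnrc6b (22.1 CPM per kb), Dicer1 (19.9), Ago1 (19.0), Ago2 (17.4), Dgcr8 (16.8), Drosha (14.4) and Xpo5 (14.2) followed Tnrc6a, and Ago3 had 2.59 CPM per kb. Under every length used Tnrc6a came first, Ago3 next to last and Ago4 last.

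**Figure D1:**
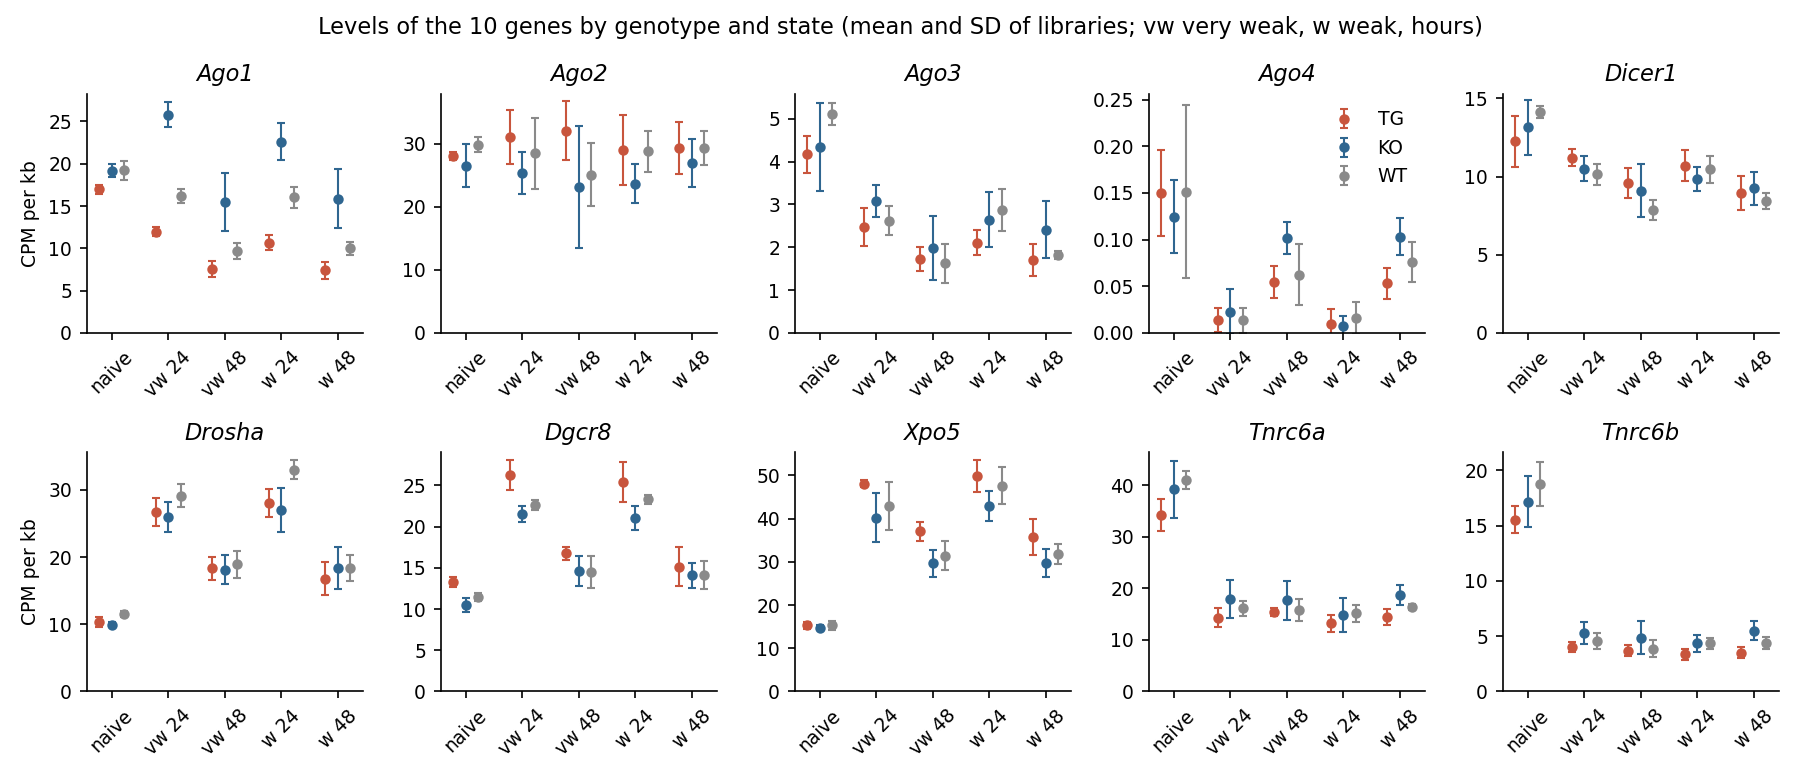
Level of each of the 10 genes in CPM per kb of exon in the 15 groups, as mean and SD over 3 or 4 libraries, for TG, KO and WT cells in the naive state and the 4 stimulated states. Ago1 is ordered KO, WT, TG in every stimulated state, and Ago4 stays near 0 throughout.

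Ago1 binds microRNAs and represses targets without being known for efficient slicing. It was the only member called between each pair of genotypes in the pools of stimulated cells described below. In stimulated cells it was higher in KO than in WT, and lower in TG than in WT. To compare genotypes across the 4 stimulated states with 1 value per replicate number, counts of those 4 libraries were summed into pools, 4 per genotype. The Ago1 level was 64.7, 62.7, 67.7 and 73.3 CPM in the TG pools, 130, 135, 145 and 163 CPM in the KO pools, and 86.2, 96.4, 98.4 and 89.9 CPM in the WT pools. The 3 genotypes do not overlap: the highest TG pool lies below the lowest WT pool, and the lowest KO pool lies above the highest WT pool.

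Ago1 rose in KO pools against WT pools by 0.63 on the log2 scale (SE 0.0767, adjusted p = 8.56e-04), a ratio of 1.54. It was the only 1 of the 10 genes called in that comparison, in which 5.93% of all genes tested were called and 3.59% were called higher. In TG pools Ago1 fell by 0.47 on the log2 scale against WT pools (SE 0.0768, adjusted p = 0.00271), a ratio of 0.724. It was again the only 1 of 10 called, beside 13.6% of all genes in either direction and 7.25% lower. The difference between TG and KO pools was -1.09 (SE 0.0774, adjusted p = 1.35e-06). The 3 comparisons share pools, so they are not independent of each other.

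The same-numbered pools of the 3 genotypes deviated together from their group means, so a fit with the replicate number as a block was also made. With that block, Drosha joined Ago1 in KO against WT at -0.15 (adjusted p = 0.0379), which made 2 of 10 beside 19.4% of all genes. In TG against WT the block gave 4 of 10 beside 29.3% of all genes: Dgcr8 at 0.17 (adjusted p = 0.0143), Xpo5 at 0.15 (adjusted p = 0.0250) and Drosha at -0.15 (adjusted p = 0.0301) were added. The 2 of 10 in KO against WT is close to the background share, and the added differences are each smaller in size than 0.2, against 0.63 and 0.47 for Ago1.

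**Figure D2:**
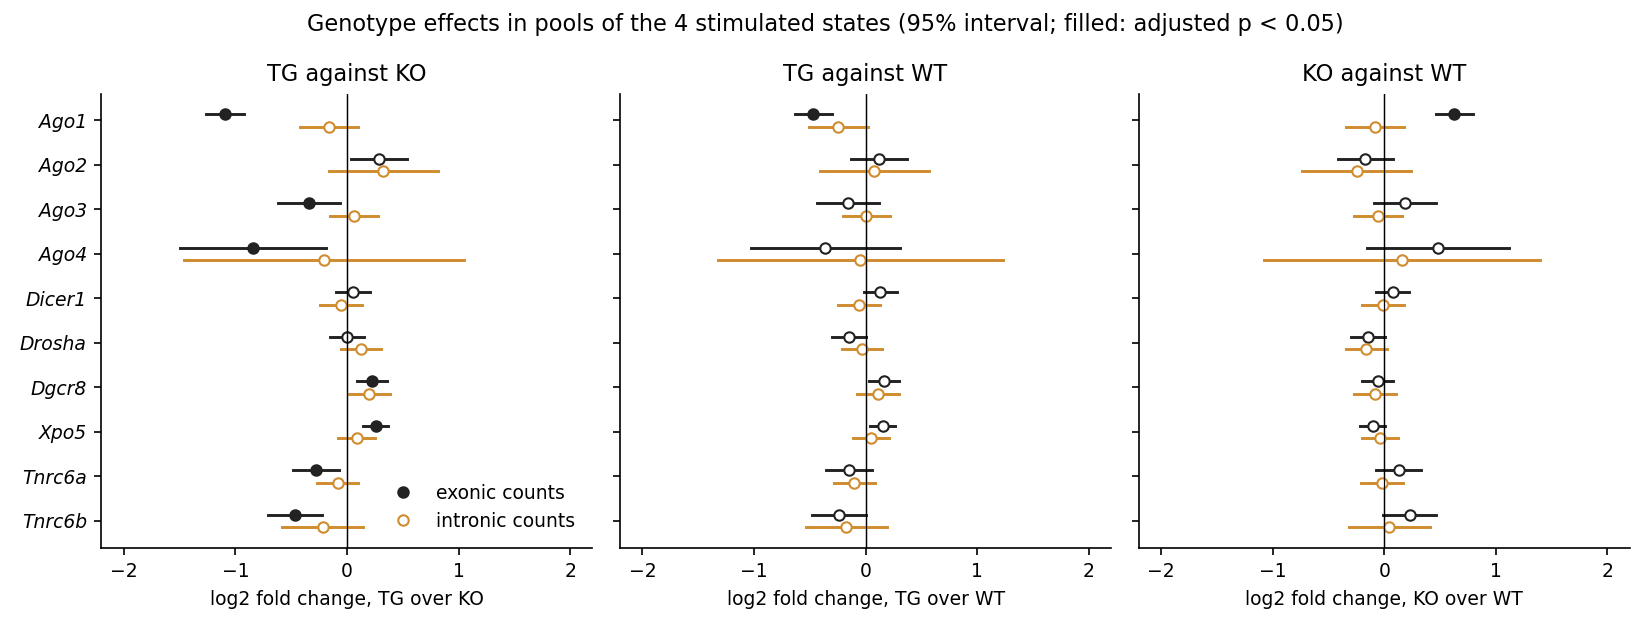
Log2 difference of each of the 10 genes between genotypes in the stimulated pools, for TG against KO, KO against WT and TG against WT. Exonic and intronic counts are both drawn, with 95% intervals from a separate fit to 12 pools for each. Filled circles mark an adjusted p under 0.05. Ago1 on exonic counts is the only one filled in the comparisons of KO with WT (0.63) and of TG with WT (-0.47).

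State by state, Ago1 showed the same order. After 24 h of very weak stimulation its level was 81.5, 83.9, 85.5 and 90.8 CPM in TG libraries, 179, 173, 190 and 196 CPM in KO libraries, and 112, 122, 119 and 110 CPM in WT libraries. After 48 h of very weak stimulation it was 44.8, 53.4, 55.9 and 60.8 CPM in TG, 94.0, 120, 87.7 and 141 CPM in KO, and 62.7, 70.7, 78.1 and 65.4 CPM in WT. In both states the genotypes do not overlap, although the KO libraries at 48 h spread widely.

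After 24 h of weak stimulation the Ago1 level was 81.4, 67.0, 76.4 and 80.2 CPM in TG, 170, 138, 166 and 171 CPM in KO, and 109, 117, 126 and 107 CPM in WT. After 48 h of weak stimulation it was 52.0, 44.0, 53.9 and 61.6 CPM in TG, 80.4, 107, 132 and 135 CPM in KO, and 63.8, 74.1, 71.2 and 77.0 CPM in WT. Again no KO library reached down to a WT library and no TG library reached up to one.

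Ago1 rose in KO against WT in each of the 4 stimulated states, by 0.67 (very weak, 24 h, adjusted p = 3.32e-04), 0.68 (very weak, 48 h, adjusted p = 1.71e-04), 0.49 (weak, 24 h, adjusted p = 0.0129) and 0.67 (weak, 48 h, adjusted p = 1.88e-04). It was the only member called in each, beside 1.06%, 4.63%, 1.4% and 5.04% of all genes in that order. In fits of only the groups compared, both 48 h calls were lost at a similar size. They were 0.68 after very weak (adjusted p = 0.136) and 0.67 after weak stimulation (adjusted p = 0.0876). The weak 24 h call was lost when either WT replicate 1 or WT replicate 4 of that state was left out. With the replicate block, Drosha was also called there, at -0.30 (adjusted p = 0.0374), beside 3.18% of all genes.

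Ago1 fell in TG against WT in the same 4 states, by 0.44 (very weak, 24 h, adjusted p = 0.0201), 0.37 (very weak, 48 h, adjusted p = 0.0286), 0.59 (weak, 24 h, adjusted p = 9.76e-04) and 0.43 (weak, 48 h, adjusted p = 0.0101). It was again the only member called, beside 3.73%, 13.3%, 4.81% and 9.96% of all genes. The very weak 24 h call was lost in 4 of 8 fits that left out 1 library of the state, and so was the very weak 48 h call, while the weak 48 h call was lost without TG replicate 2. With the replicate block, Dicer1 was also called after 48 h of very weak stimulation, at 0.29 (adjusted p = 0.0424), beside 18.8% of all genes.

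**Figure D3:**
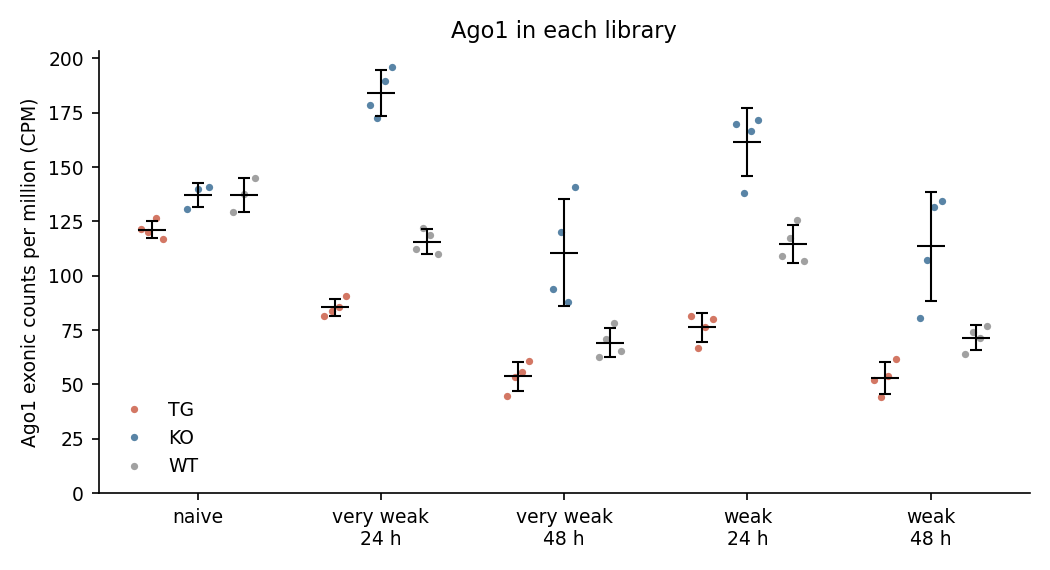
Ago1 level in CPM in each of the 58 libraries, by state and genotype, with the group mean. In the 4 stimulated states TG libraries lie between 44.0 and 90.8 CPM, KO libraries between 80.4 and 196 CPM and WT libraries between 62.7 and 126 CPM, with no overlap of genotypes within a state.

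In the naive state KO and WT did not separate. The Ago1 level was 121, 120, 127 and 117 CPM in naive TG, 131, 140 and 141 CPM in naive KO, and 129, 138 and 145 CPM in naive WT libraries. The KO libraries lie within the WT range, and the difference was -0.00 (95% interval -0.27 to 0.27, adjusted p = 1). The TG libraries lie just below the lowest WT library, but the difference of -0.18 was not called (adjusted p = 0.432). No member was called in naive KO against WT by edgeR or by DESeq2, and none had an unadjusted p under 0.05 by either tool, beside 0.0365% of all genes called. In naive TG against WT no member was called by either tool, 1 had an unadjusted p under 0.05 by each, and 7.83% of all genes were called.

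The KO effect on Ago1 differed between stimulated and naive cells. The mean KO against WT difference over the 4 stimulated states exceeded the naive one by 0.63 (SE 0.146, adjusted p = 0.0499), a call shared with 22 other genes, or 0.168% of those tested. That value sits at the threshold, and it was lost in 33 of 58 fits that left out 1 library (highest adjusted p 0.241). Unlike the pools, this test counted single libraries as independent. Same-numbered stimulated libraries of a genotype often deviated together from their group means (60 of 72 pairs correlated above 0.1). For TG against WT the corresponding difference for Ago1 was -0.28 (adjusted p = 0.248), and no member was called by edgeR or DESeq2, with 2 at an unadjusted p under 0.05 by each, beside 6.18% of all genes.

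Intronic reads come from unspliced RNA, so they give a second readout of the same gene. Intronic Ago1 was 24.98, 24.6, 25.7 and 24.1 CPM in TG pools, 27.7, 25.1, 24.97 and 33.1 CPM in KO pools, and 32.2, 32.8, 28.8 and 23.8 CPM in WT pools. The genotypes overlap. The intronic difference between KO and WT was -0.08 (95% interval -0.34 to 0.18, adjusted p = 0.895), and that between TG and WT was -0.24 (95% interval -0.50 to 0.02, adjusted p = 0.408). None of the 10 genes was called on intronic reads in KO against WT or in TG against WT, by edgeR or DESeq2, and none had an unadjusted p under 0.05, beside 0.11% and 2.06% of all genes called. In TG against KO none was called by either tool, 1 had an unadjusted p under 0.05 by each, and 16.7% of all genes were called. There the replicate block called Ago2 alone, at 0.33 (adjusted p = 0.0492), beside 32.2% of all genes.

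A fit of both kinds of reads tested whether the exonic change exceeded the intronic one. For Ago1 in KO against WT pools the exonic change exceeded the intronic change by 0.71 (SE 0.114, adjusted p = 0.00682), the only call among the members, beside 0.412% of all genes. The call was lost without replicate 2 (0.65, adjusted p = 0.18) or without replicate 3 (0.68, adjusted p = 0.107). In TG against WT the excess was -0.22 (95% interval -0.46 to 0.02, adjusted p = 0.619), with no member called, 1 at an unadjusted p under 0.05, and 0.292% of all genes called. In TG against KO it was -0.93 (SE 0.115, adjusted p = 7.02e-05), beside 10.1% of all genes. Ago1 was the only member called there without the block, and with it Ago3 (-0.38), Tnrc6a (-0.18), Tnrc6b (-0.20) and Xpo5 (0.18) were called as well, beside 25.8% of all genes.

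The share of Ago1 among Argonaute messages shows the same separation on another scale. Summing the 4 Argonautes as CPM per kb, Ago1 made up 25.8 ± 2.73% in TG, 46.3 ± 2.96% in KO and 33.8 ± 4.11% in WT cells after 24 h of weak stimulation (SD, n = 4). After 48 h it made up 19.3 ± 1.96% in TG, 34.8 ± 3.25% in KO and 24.3 ± 0.799% in WT. In naive cells the shares lay close together, at 34.4 ± 0.561% in TG (n = 4), 38.4 ± 3.04% in KO (n = 3) and 35.4 ± 1.33% in WT (n = 3). Ago2, the Argonaute best known for slicing its targets, made up most of the rest, between 46.6% and 77.4% in the 15 groups. These shares change with the length assigned to each gene, and they are levels of RNA, not of protein.

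**Figure D4:**
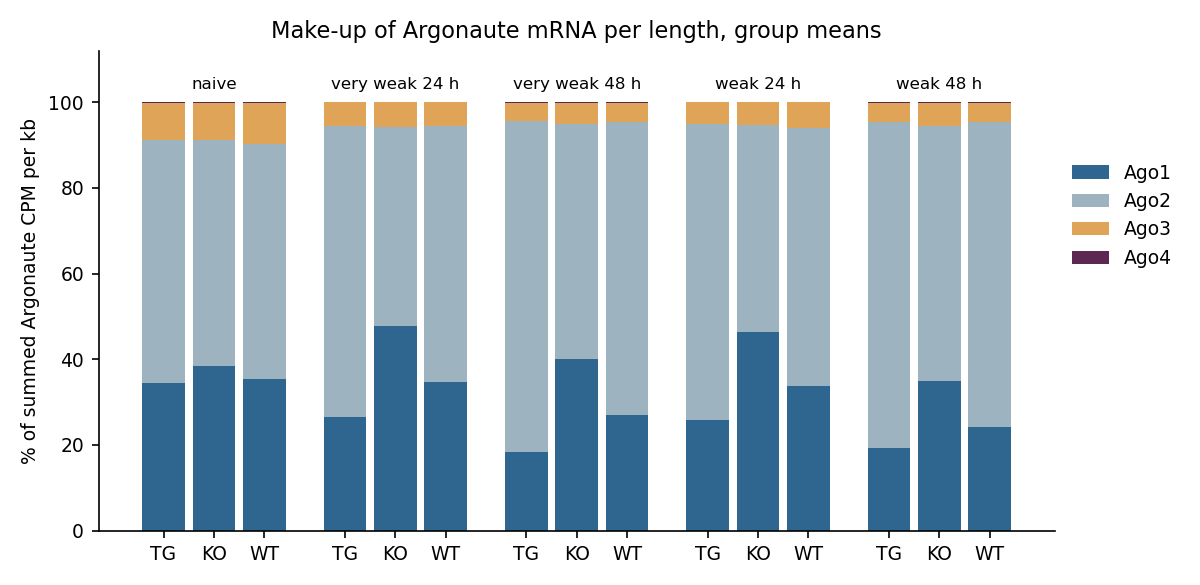
Share of each Argonaute gene in the summed Argonaute level (CPM per kb) in TG, KO and WT cells in the naive state and the 4 stimulated states, as group means. Ago1 takes 18.2% to 26.4% in stimulated TG, 34.8% to 47.7% in stimulated KO and 24.3% to 34.7% in stimulated WT groups, and Ago4 is close to 0 in all.

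Ago2 did not separate the genotypes against WT. It averaged 244 ± 24.9 CPM in TG pools, 200 ± 31.9 CPM in KO pools and 224 ± 22.5 CPM in WT pools (SD, n = 4 each). The difference was -0.17 in KO against WT (95% interval -0.42 to 0.08) and 0.12 in TG against WT (95% interval -0.13 to 0.37). Ago3 averaged 15.8 ± 1.84 CPM in TG pools, 20.1 ± 4.07 CPM in KO pools and 17.6 ± 1.25 CPM in WT pools, and neither comparison with WT was called. Ago4 had pool means of 0.214 CPM in TG, 0.386 CPM in KO and 0.276 CPM in WT, and a difference from WT was not detectable at this depth.

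In TG against KO pools, 7 of the 10 genes were called, but so were 44.3% of all genes. Besides Ago1, Ago3 (-0.34, adjusted p = 0.0470), Ago4 (-0.84, adjusted p = 0.0377), Tnrc6a (-0.28, adjusted p = 0.0298) and Tnrc6b (-0.47, adjusted p = 0.00481) fell in TG. Dgcr8 (0.23, adjusted p = 0.0117) and Xpo5 (0.26, adjusted p = 0.00162) rose in TG. The Ago3, Ago4 and Tnrc6a calls were lost in 5, 7 and 4 of the 8 fits that left out 1 TG or KO pool, and the other 4 were kept in all 8. With the replicate block, Ago2 was added at 0.30 (adjusted p = 0.00379), beside 57.0% of all genes.

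Tnrc6b, a scaffold between Argonautes and the deadenylases, had 73.9, 63.5, 78.2 and 82.6 CPM in TG pools, against 98.0, 105, 83.8 and 125 CPM in KO pools. The groups do not overlap, though the highest TG pool and the lowest KO pool lie close together. Xpo5 had 200, 193, 206 and 209 CPM in TG pools, against 180, 167, 158 and 171 CPM in KO pools, with no overlap. Dgcr8 had 127, 121, 139 and 143 CPM in TG pools, against 116, 105, 114 and 118 CPM in KO pools, also with no overlap. WT pools lay between or beside them, at 83.3 to 92.5 CPM for Tnrc6b, 175 to 191 CPM for Xpo5 and 111 to 126 CPM for Dgcr8.

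Within single states, TG against KO gave 1 to 5 members. In naive cells only Dgcr8 was called, at 0.34 (adjusted p = 0.0211), with 82.5, 80.7, 89.7 and 82.2 CPM in TG against 66.0, 71.6 and 61.2 CPM in KO, beside 13.3% of all genes. Ago1 was called in the 4 stimulated states, between -1.04 and -1.11. After 24 h of very weak stimulation Dgcr8 (0.29) and Xpo5 (0.26) were called with it, 3 of 10 beside 24% of all genes, and the replicate block added Tnrc6a and Tnrc6b beside 29.5%. After 24 h of weak stimulation Dgcr8 (0.28) was called with it, 2 of 10 beside 24%. After 48 h of very weak stimulation Xpo5 (0.32) and Ago2 (0.47, adjusted p = 0.0417) were called with it, beside 37.2% of all genes. The Ago2 call includes the KO replicate 3 library that stood apart, with 75.7 CPM of Ago2 against 197 to 259 CPM in the other KO libraries of that state, and without it the difference was 0.21 (adjusted p = 0.288). After 48 h of weak stimulation Xpo5 (0.27), Ago3 (-0.50), Tnrc6a (-0.38) and Tnrc6b (-0.66) were called with Ago1, 5 of 10 beside 37.9%. When each library of a state was left out in turn, the Ago1 calls, that of Xpo5 after 48 h of very weak stimulation and that of Tnrc6b after 48 h of weak stimulation were kept in all 8 fits, and each of the other calls was lost in 3 or more.

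Leaving the KO replicate 3 library of that state out of the sums did not change the Ago1 result: KO against WT was 0.67 (adjusted p = 0.001) and TG against KO was -1.14. Summed markers of other cell types overlapped between the stimulated genotypes. B cell markers (6 of 6 detected) summed to 17.4 to 67.8 CPM in TG, 12.9 to 50.6 CPM in KO and 14.5 to 52.5 CPM in WT libraries. Myeloid markers (7 of 7 detected) summed to 0.205 to 2.28 CPM in TG, 0.157 to 3.78 CPM in KO and 0.504 to 2.89 CPM in WT libraries. NK markers (4 of 4 detected) summed to 3.78 to 30.5 CPM in TG, 2.44 to 8.02 CPM in KO and 3.60 to 12.3 CPM in WT libraries, and the CD8 genes (2 of 2 detected) to 6.51 to 18.6 CPM in TG, 10.6 to 26.1 CPM in KO and 9.45 to 24.3 CPM in WT libraries. Their part in the genotype results was not tested.

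Stimulation itself moved most of the 10 genes, in a background where most genes moved. Against naive WT cells, 8 of 10 were called after 24 h of weak stimulation, 3 higher and 5 lower, while 77.4% of all genes were called, 36.8% higher and 40.7% lower. The members of the nuclear and export steps rose: Drosha by 1.52, Dgcr8 by 1.03 and Xpo5 by 1.64 on the log2 scale. The GW182 genes fell, Tnrc6a by 1.43 and Tnrc6b by 2.11, and so did Ago3 by 0.83, Ago4 by 3.17 and Dicer1 by 0.43. Ago1 (-0.26, adjusted p = 0.0544) and Ago2 (-0.05, adjusted p = 0.820) were not called by edgeR, while DESeq2 called Ago1 as well (-0.29, adjusted p = 0.0318).

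Drosha had 196, 180, 194 and 182 CPM in WT cells after 24 h of weak stimulation, against 68.5, 63.3 and 65.0 CPM in naive WT cells. Dgcr8 had 142, 149, 151 and 148 CPM, against 69.1, 72.4 and 75.8 CPM in naive WT cells. Xpo5 had 237, 246, 200 and 218 CPM, against 68.7, 70.5 and 77.3 CPM in naive WT cells. In these 3 genes every stimulated library lies far above every naive one, beside 36.8% of all genes called higher. How many of all genes separate in this way was not counted.

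Dicer1, which trims the exported precursor to a duplex, had 136, 162, 144 and 139 CPM in the same stimulated libraries, against 190, 197 and 201 CPM in naive WT cells. Tnrc6a had 123, 149, 132 and 155 CPM, against 365, 396 and 373 CPM in naive WT cells. Tnrc6b had 81.8, 85.2, 84.0 and 104 CPM, against 382, 425 and 344 CPM in naive WT cells. None of the 3 overlaps between the states, beside 40.7% of all genes called lower. The share of all genes without such overlap was not counted. Tnrc6b has the largest drop among the members with more than a few CPM.

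Among the Argonautes, Ago2 had 243, 249, 192 and 241 CPM in the stimulated libraries, against 234, 251 and 235 CPM in naive WT cells, so the states overlap. Ago3 had 19.997, 28.3, 20.1 and 22.3 CPM, against 38.0, 41.8 and 41.2 CPM in naive WT cells, with no overlap. Ago4 had 0.106, 0, 0.0519 and 0.258 CPM, against 0.817, 0.484 and 1.66 CPM in naive WT cells. The stimulated Ago4 values rest on 8 counts in all, so its fitted drop of 3.17 is imprecise.

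**Figure D5:**
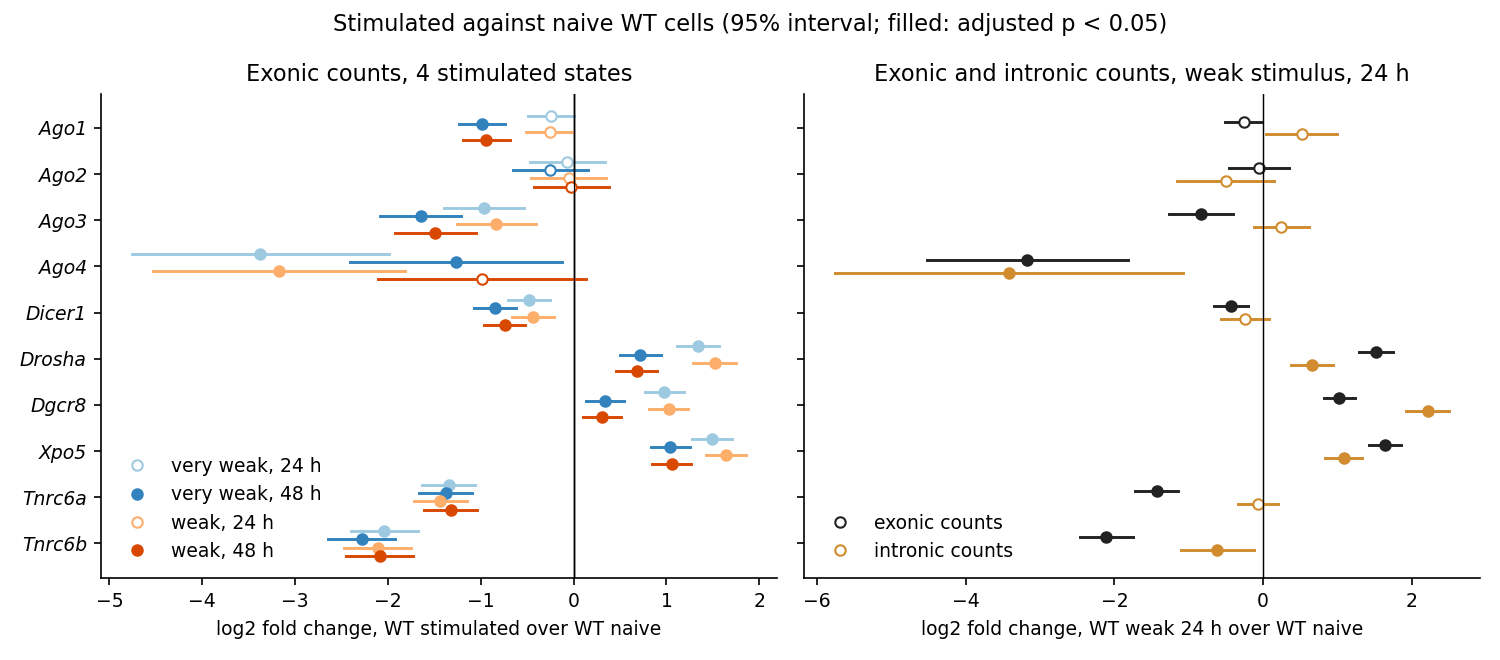
Log2 difference of each of the 10 genes between stimulated and naive WT cells, with 95% intervals. The left panel shows exonic counts in the 4 stimulated states, the right panel exonic and intronic counts after 24 h of weak stimulation. Filled circles mark an adjusted p under 0.05. On exonic counts Drosha and Xpo5 lie right of 0 and Tnrc6a, Tnrc6b and Ago3 left of 0 in all 4 states. Ago2 has no filled circle.

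The 4 stimulated states and 3 genotypes give 12 comparisons with naive cells, in which 99 of 120 gene and comparison pairs were called. Those of 1 genotype share its naive libraries. For 24 h very weak, 48 h very weak, 24 h weak and 48 h weak stimulation, the share of all genes called was 77.6%, 79.9%, 78.9% and 80.2% in TG, 74.3%, 74.8%, 76.4% and 75.1% in KO, and 76.3%, 77.7%, 77.4% and 78.2% in WT cells. Among the members, 8, 9, 8 and 8 were called in TG, 9, 8, 8 and 8 in KO, and 8, 9, 8 and 8 in WT cells in the same order. Drosha and Xpo5 rose in 12 of 12 and Dgcr8 in 11 of 12, the exception being TG cells after 48 h of weak stimulation (0.19, adjusted p = 0.0611). Tnrc6a, Tnrc6b and Ago3 fell in 12 of 12, Dicer1 in 10 and Ago4 in 9. Ago2 was called in none of the 12, and its difference lay between -0.25 and 0.19.

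The response of Ago1 to stimulation had different values in the 3 genotypes, and the test of that difference is the one given above for the mean over the 4 states. In KO cells it rose by 0.42 after 24 h of very weak stimulation (adjusted p = 0.00240), was not called after 24 h of weak stimulation (0.24, adjusted p = 0.0840), and fell by 0.31 and 0.27 at 48 h of very weak and weak stimulation, calls that were lost in 3 and 5 of 7 fits that left out 1 library. In TG cells it fell in all 4 states, by 0.50 and 0.67 at 24 h and by 1.18 and 1.20 at 48 h of very weak and weak stimulation. In WT cells it was not called at 24 h (-0.25 and -0.26) and fell by 0.99 and 0.94 at 48 h. The 24 h values in WT cells lie near the threshold: DESeq2 called a fall in both (adjusted p = 0.0398 and 0.0318), and so did edgeR with the replicate block (adjusted p = 0.0352 and 0.0262).

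Markers of other lymphoid and myeloid cells were higher in naive than in stimulated libraries. Summed B cell markers (6 of 6 detected) ranged from 12.9 to 67.8 CPM in stimulated and from 118 to 308 CPM in naive libraries. Summed myeloid markers (7 of 7 detected) ranged from 0.157 to 3.78 CPM in stimulated and from 68.9 to 248 CPM in naive libraries, and NK markers (4 of 4 detected) from 2.44 to 30.5 CPM and from 43.1 to 95.7 CPM in the same order. The sum for the CD8 genes (2 of 2 detected) ranged from 6.51 to 26.1 CPM in stimulated and from 29.2 to 67.1 CPM in naive libraries. The erythroid genes in the tables (2 of 4 listed) ranged from 0 to 0.369 CPM in stimulated and from 3.09 to 17.8 CPM in naive libraries. Summed CD4 T cell markers (6 of 6 detected) had medians of 2077 CPM in stimulated and 4133 CPM in naive libraries. The part of these cells in the changes with stimulation was not tested.

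On intronic reads, 5 of the 10 genes were called in WT cells after 24 h of weak stimulation, beside 60.7% of all genes. Dgcr8 rose by 2.21 and Xpo5 by 1.08, Drosha rose by 0.66, Tnrc6b fell by 0.61 and Ago4 fell by 3.42. The Tnrc6b call was lost in 2 of 4 fits that left out 1 replicate number, and Ago4 had too few intronic reads to be tested in 2 of the 4. Tnrc6a, whose exonic reads fell by 1.43, had an intronic difference of -0.07 (adjusted p = 0.646), and Ago3 had 0.24 (adjusted p = 0.252).

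The exonic change differed from the intronic one for 7 of 10 genes in that comparison, beside 51.4% of all genes. The exonic change was lower than the intronic change for Tnrc6b (by -1.55), Tnrc6a (-1.37), Dgcr8 (-1.19), Ago3 (-1.12) and Ago1 (-0.78). It was higher for Drosha (0.87) and Xpo5 (0.55). Dgcr8 thus combined a rise in exonic reads with a larger rise in intronic reads, as it did in WT cells after 24 h of very weak (-1.20), 48 h of very weak (-1.32) and 48 h of weak stimulation (-1.40), beside 49.3%, 47% and 47.1% of all genes called. Ago2 (0.46), Ago4 (0.63) and Dicer1 (-0.19) were not called.

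Drosha, Dgcr8 and Xpo5, which had risen against naive cells at 24 h, fell at 48 h against 24 h in all 6 combinations of genotype and stimulus strength, by 0.51 to 0.84, 0.56 to 0.75 and 0.37 to 0.58 in that order. Ago1 also fell in all 6, by 0.51 to 0.74, and in TG and WT cells that took it further below its naive level. Ago3, already below naive at 24 h, fell further in 4 of 6, and Dicer1 fell in 3 of 6. Ago4 rose in all 6, by 1.94 to 3.57, on few counts at 24 h. Tnrc6a rose only in KO cells under weak stimulation (0.33, adjusted p = 0.0359, lost in 5 of 8 fits that left out 1 library), and Ago2 and Tnrc6b were not called. In total 38 of 60 pairs were called. The share of all genes called was 33.9% and 39.7% in TG, 34.7% and 45.6% in KO, and 34.4% and 41.4% in WT cells under very weak and weak stimulation.

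Stimulus strength gave no call. Between weak and very weak stimulation, 0 of 60 pairs were called by edgeR, 1 had an unadjusted p under 0.05, and DESeq2 called 0 with 0 under that level. The share of all genes called was 0% in each of the 6 comparisons.

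The 4 lists of cofactor genes were followed through the same comparison of WT cells after 24 h of weak stimulation with naive WT cells. Together 54 of their 64 tested genes were called, or 84.4%, near the 77.4% of all genes called (36.8% higher, 40.7% lower), and the median change of all genes was -0.09. Of 12 Microprocessor and nuclear cofactors, 7 rose and 4 fell (median 0.60), with Erh, a small protein that binds Dgcr8, higher by 2.39, Ncbp1 of the cap-binding complex higher by 1.13, while the helicases Ddx17 and Ddx5 fell by 1.96 and 1.45. Of 10 tested genes for export, dicing and precursor control, 6 rose and 3 fell (median 0.40). Ran, the GTPase that Xpo5 needs for export, rose by 2.75, Tsn rose by 1.03, and the uridylyltransferase Tut7 and the RNase Zc3h12a fell by 1.25 and 1.69.

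Of 16 tested genes for Argonaute loading and cofactors, 11 rose and 4 fell (median 1.002), in the same background of 36.8% of all genes higher and 40.7% lower. The chaperone genes Hsp90ab1, Ptges3 and Fkbp4, whose products help to load Argonautes, rose by 1.52, 1.93 and 1.87, and Snd1 rose by 1.43. Of 26 genes for deadenylation, decapping and decay, 11 rose and 8 fell (median 0.15). Cnot9 of the CCR4-NOT complex rose by 2.12 and Eif4enif1 by 1.61, while Dcp1b of the decapping complex and Pan3 of the PAN2-PAN3 deadenylase fell by 1.35 and 1.56.

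Between genotypes the lists moved about as often as all genes. Over the 4 lists, 4 of 65 genes were called in KO against WT pools, or 6.15% beside 5.93% of all genes, and 9 of 65 in TG against WT pools, or 13.8% beside 13.6%. With the replicate block, 9 of 65 were called in KO against WT, or 13.8% beside 19.4% of all genes, and 18 of 65 in TG against WT, or 27.7% beside 29.3%. In KO against WT pools, 3 of 26 decay genes rose and none fell: Patl1, a decapping activator, by 0.30 (adjusted p = 0.0106), and the catalytic deadenylases Cnot6l by 0.39 (adjusted p = 0.0139) and Cnot6 by 0.27 (adjusted p = 0.0242). In TG against WT pools, 3 of the 26 fell, Dcp1b by 0.37, Cnot6l by 0.38 (adjusted p = 0.00825) and Cnot6 by 0.24 (adjusted p = 0.0250). Cnot6l averaged 82.4 ± 8.33 CPM in TG, 140 ± 12.8 CPM in KO and 107 ± 0.820 CPM in WT pools, and Cnot6 averaged 175 ± 13.8 CPM in TG, 248 ± 9.14 CPM in KO and 206 ± 10.6 CPM in WT pools (SD, n = 4). With the replicate block 5 of the 26 were called in KO against WT and 4 in TG against WT. The list medians were 0.00 in KO against WT and -0.03 in TG against WT, against 0.01 and -0.01 for all genes.

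Of the loading and cofactor genes, 1 of 17 fell in KO against WT pools, the LIM-domain Argonaute partner Ajuba, and 4 of 17 rose in TG against WT pools. Of all genes, 5.93% and 13.6% were called in these comparisons. Ajuba averaged 50.5 ± 15.2 CPM in TG, 1.99 ± 0.343 CPM in KO and 10.1 ± 2.66 CPM in WT pools. Its relatives Limd1 and Wtip averaged 108 and 0.134 CPM in TG, 94.4 and 0.211 CPM in KO, and 97.4 and 0.148 CPM in WT pools. Limd1 rose in TG against WT by 0.15, as did Fxr2 by 0.32 and Trim71 by 1.67. Trim71 was barely detected, with pool means of 0.709 CPM in TG, 0.135 CPM in KO and 0.222 CPM in WT. The replicate block gave 2 of the 17 in KO against WT and 7 in TG against WT, beside 19.4% and 29.3% of all genes. Of 10 export and dicing genes, the Dicer partner Tarbp2 (0.42) and Ran (0.23) rose in TG against WT pools. In KO against WT pools edgeR and DESeq2 called 0 of these 10, with 2 at an unadjusted p under 0.05 by edgeR. The replicate block gave 1 of the 10 in KO against WT and 5 in TG against WT, beside the same 19.4% and 29.3% of all genes. Of the 12 nuclear cofactors, edgeR called 0 in KO against WT and 0 in TG against WT pools, with 2 under 0.05 unadjusted in each, and DESeq2 called 0 and 1. The replicate block gave 1 and 2 of the 12 in these comparisons. In naive TG against WT cells, 3 of 64 genes of the lists were called, or 4.69% beside 7.83% of all genes: Tsn (0.38), Limd1 (0.23) and the decapping enzyme Dcp2 (0.60) rose, and the nuclear cofactors had 0 called by edgeR, 2 under 0.05 unadjusted and 1 called by DESeq2.

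Across the 15 group means, the genes with the profile most like that of Ago1 (Pearson r of log2 CPM, as a description over groups that share genotypes and states) were Phka2 (0.968) and Nat8f4 (0.966). Ago2, with little variation, had Hic2 (0.866) and Arih1 (0.841). Xpo5 was closest to Adsl and Nifk (0.998 each), Tnrc6a to Rprd2 (0.997) and Chd6 (0.996), Tnrc6b to Utrn (0.996) and Rnf111 (0.995), Drosha to Klhl12 (0.990) and Nat10 (0.989), and Dgcr8 to Thap12 (0.981) and Sf3a1 (0.980). Ago3 was closest to Ankhd1 (0.986) and Rapgef2 (0.982), Ago4 to Mindy2 (0.985) and Kif3c (0.983), and Dicer1 to Camsap2 (0.975) and Akap8 (0.963).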

How the data were processed

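Poly(A) RNA libraries (stranded TruSeq, single-end 76-base reads, per the labels' protocols) of 58 samples were analysed. The deposited tables hold whole-number read counts per gene over exons and, separately, over introns. Per the submitters' processing notes the authors used FastQC 0.11.5, STAR 2.5.2a, R 3.5, edgeR 3.24.3 and genome mm10. No source used here names the counting program, the annotation or the strand setting. Gene IDs were matched to symbols in RefSeq (23968 of 24028) and GENCODE (7), and 53 stayed unnamed.

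Counts were fitted with edgeR 4.0.16 in R 4.3.3 (TMM scaling, filterByExpr, quasi-likelihood F test) with 1 coefficient for each of the 15 groups and 43 residual degrees of freedom. The tests covered 13709 genes over libraries and 13567 over pools, 12366 and 12774 on intronic counts, and 11350 and 11659 in the fits of exonic minus intronic change. P-values were adjusted by Benjamini-Hochberg over all genes tested. Exonic and intronic counts were compared in a single fit with a block per library or pool and a common dispersion taken from every 10th gene. Scripts were tested on simulated data.

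Named were all 10 members, up to 4 genes of each cofactor list by smallest adjusted p, the LIM-domain Argonaute partners, and the 2 genes most correlated with each member. The cofactor lists were written from textbook knowledge. The members and lists were chosen with earlier results of these data known.

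The replicate numbers come from the titles. Same-numbered libraries of different genotypes deviated together in every stimulated state (48 of 48 pairs above 0.1, lowest 0.132, highest 0.625), and so did the pools (0.249 to 0.655), so numbers were taken to pair the samples there. Between naive genotypes 6 of 9 same-numbered pairs were above 0.1 (median 0.18, against -0.0672 for different numbers), and between stimulated and naive cells of a genotype 3 of 40, so not every pair was and the numbers were not taken to pair there.

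Alternatives were DESeq2 1.42.0, RLE scaling, no filter, a replicate block, only the groups compared, limma 3.58.1, leaving out each library, and replicate subsets. Precision is limited by the 3 or 4 libraries per group.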

Additional observations from a re-analysis of the deposited data

Results flagged for a closer look

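Among the 190 sets of 4 libraries or pools tested for a value far from the others, 12 held one, and chance flags about 1 in 20 sets. Of these, 8 are exonic levels of single libraries. Ago1 was 138 CPM in KO replicate 2 after 24 h of weak stimulation, against 166 to 171 CPM in the other 3. Ago2 was 192 CPM in WT replicate 3 of the same state, against 241 to 249 CPM. Drosha was 142 CPM in TG replicate 2 of that state, against 165 to 167 CPM, and 125 CPM in WT replicate 3 after 48 h of very weak stimulation, against 99.8 to 104 CPM. Tnrc6a was 145 CPM in TG replicate 4 after 24 h of weak stimulation, against 113 to 114 CPM. Tnrc6b was 54.3 CPM in KO replicate 3 after 48 h of very weak stimulation, against 108 to 118 CPM, and 55.9 CPM in TG replicate 2 after 48 h of weak stimulation, against 75.2 to 78.4 CPM. Tnrc6b was also 104 CPM in WT replicate 4 after 24 h of weak stimulation, against 81.8 to 85.2 CPM.

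The other 4 are pools. Tnrc6a was 149 CPM in TG pool 4, against 124 to 128 CPM, and Ago4 was 0.455 CPM in KO pool 4, against 0.353 to 0.368 CPM. On intronic reads, Ago4 was 1.45 CPM in WT pool 2, against 0.306 to 0.428 CPM, and Tnrc6b was 291 CPM in WT pool 1, against 197 to 213 CPM.

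Ago1 is also listed because its KO against WT difference was larger in stimulated than in naive cells, by 0.63 on the log2 scale in the test of that difference (adjusted p = 0.0499).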

How the results depend on the processing

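No call changed sign under any alternative. DESeq2 kept 188 of 189 calls, RLE scaling 217 of 220, no filter 204 of 220, limma 31 of 31, fits of only the groups compared 139 of 160, replicates 1 and 2 alone 140 of 169, and replicates 3 and 4 alone 114 of 169. The replicate block kept 220 of 220 and added 19. Outside the paired comparisons it added 5, among them Ago1 in WT cells after 24 h of weak (adjusted p = 0.0262) and very weak (adjusted p = 0.0352) stimulation. In the pools the block gave 14 calls (2, 4 and 8 in KO against WT, TG against WT and TG against KO), against 9 without it (1, 1 and 7), and for exonic minus intronic change in TG against KO it gave 5 against 1. It changed no other call of the 10 genes in the paired comparisons than those given in the report, and its counts for the cofactor lists stand there too.

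Averaging the 4 states over single libraries gave 16 pool calls (3 in KO against WT, 6 in TG against WT). DESeq2 added 7 calls in all, among them Xpo5 in TG against WT pools (adjusted p = 0.0288) and Ago2 in TG against KO pools (adjusted p = 0.0308). It gave 2 pool calls in TG against WT, as did summing without KO replicate 3 after 48 h of very weak stimulation, an alternative added after the data were seen. Replicates 1 and 2 alone gave 4 pool calls (0 in KO against WT, 3 in TG against KO), and replicates 3 and 4 alone gave 4 (0 in TG against WT, 3 in TG against KO). By state these subsets gave 10 and 9 calls against 22. Over time, replicates 3 and 4 gave 18 against 38. For the difference between stimulated and naive, no filter and both subsets gave 0 against 1.

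Ago1 was 0.54 (adjusted p = 0.0744) in KO against WT with replicates 1 and 2, and -0.41 (adjusted p = 0.0564) in TG against WT with replicates 3 and 4. Its stimulated minus naive KO effect was 0.63 (adjusted p = 0.101) with only the groups compared, 0.62 (0.0772) without the filter, and 0.51 (0.429) and 0.72 (0.0872) in the subsets. Leaving out 1 library or pool at a time gave 0.56 to 0.66 for Ago1 in KO against WT pools, -0.51 to -0.43 in TG against WT, 0.59 to 0.67 for the stimulated minus naive KO effect (0 to 2 calls), and 0.65 to 0.81 for exonic minus intronic change in KO against WT (0 to 1 calls). TG against KO pools then held 4 to 6 calls, all pools 6 to 9, the states 19 to 27 and the times 35 to 39. Reversed values, all of genes not called, were Ago3 in KO against WT (-0.026) and Ago2 in TG against WT (-0.012) with replicates 1 and 2, Ago3 in TG against WT (0.034) with replicates 3 and 4, and Drosha in TG against KO (-0.0030 over states, -0.037 without that KO library, -0.0035 with replicates 3 and 4). The cause of these shifts was not tested. The subsets hold fewer samples. Depth limits Ago4, which had 4 to 80 counts per group.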
